A study of Mus musculus with 3 samples.

Results

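Cardiac myofibroblasts held in suspension were compared with the same kind of cells attached to plastic, by gene expression on 1-colour Agilent mouse arrays, over the 13998 genes that were well above background on both arrays of the 20660 genes with a named probe. The comparison rests on 2 of the 3 arrays of the series, titled adherent and non-adherent, and the re-adherent array was not used here. Both groups came from male C57BL/6J mice, for which the labels give an age of 8 weeks among the sample characteristics and of 10 weeks when the left anterior descending artery of the heart was tied off for good. In both, hearts were collected 3 days after the ligation, the digested cells were left overnight to attach, and a magnetic sort took out the cells with CD45, the common leukocyte antigen. Adherent cells were cultured on plastic plates. Non-adherent cells were first cultured on plastic in the same way, then detached with trypsin and kept on ultra-low attachment plates. According to the study's methods most cells were lost during suspension culture, so the non-adherent array describes the cells that remained. The non-adherent cells had also been in culture for longer than the adherent cells, and time in culture cannot be told apart from the state. Each group was 1 RNA sample, which the design text describes as mixed with hearts from several plates, on 1 array, so no difference below has a replicate check and no p-value is given.

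Myofibroblasts are the contractile, matrix-secreting form of the fibroblast that builds scar after an infarct. On a stiff surface they assemble stress fibres of alpha-smooth muscle actin that end in focal adhesions, the integrin-based contacts with the surface. Tension in these fibres acts on gene expression through serum response factor (SRF) with its actin-sensing cofactors, which bind CArG boxes in promoters, and through the cofactors YAP and TAZ with the DNA-binding TEAD proteins.

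The file headers give both arrays the same slide and scan. The software marked 58.1% of 59305 non-control spots on the adherent and 59.9% on the non-adherent array as well above background, and none as saturated. Signals are given in units of processed intensity, and differences are log2 values of the non-adherent minus the adherent array after division of each array by its own 75th percentile, 647 and 693 units. The software's error of a difference had a median of 0.20, probes with repeated spots gave an error of 0.10, and different probes for 1 gene had a median SD of 0.17. These errors are technical only. Among 285 genes with several probes and a difference over 4-fold, all probes moved in the same direction for 277. In such bulk samples fewer cells of a type and less RNA per cell cannot be told apart.

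Over all 13998 genes, 548 (3.91%) had a level over 4-fold lower in suspension and 893 (6.38%) a level over 4-fold higher. At 2-fold the counts were 1833 (13.1%) and 2176 (15.5%). At 16-fold the balance turned, with 83 genes (0.593%) lower and 41 (0.293%) higher. The median difference of all genes was -0.08, with -1.74 at the 5th and 2.25 at the 95th percentile. Scaling to the 6 E1A spike-in probes moved that median to -0.29 and gave 2555 genes lower and 1775 higher at 2-fold, so that 59.0% of the called genes were lower in place of 45.7%. At 4-fold it gave 669 and 727 genes, or 47.9% lower in place of 38%. Below, fell and rose are used of differences over 4-fold, and from every list median the median of all genes, -0.08, was subtracted.

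**Figure D1:**
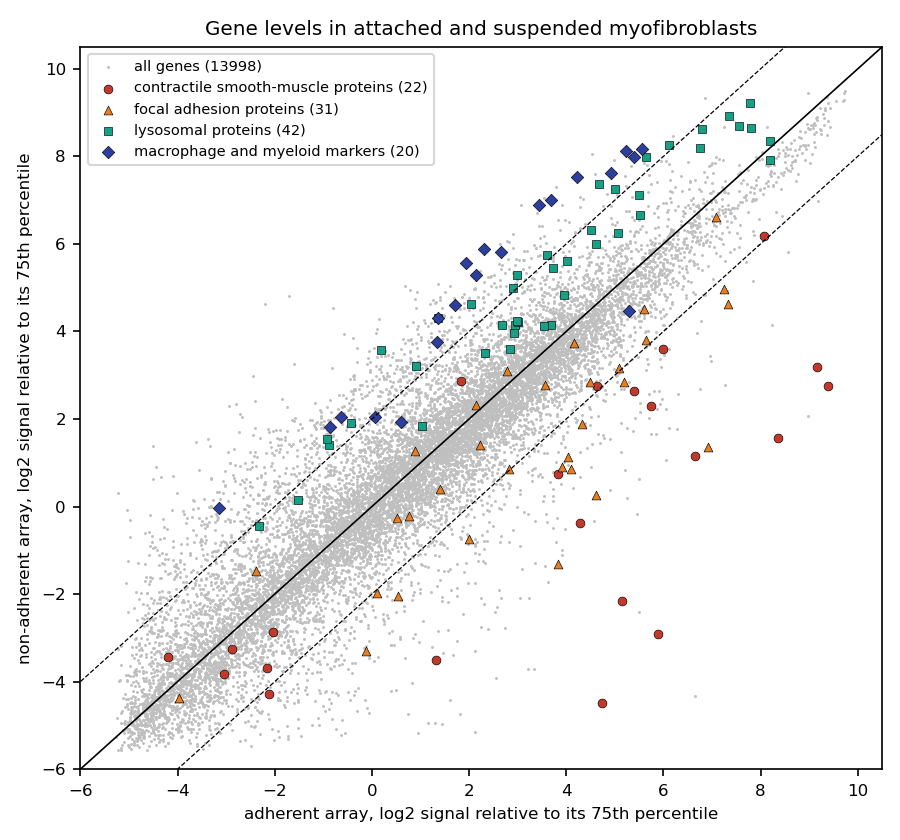
Log2 signal of 13998 genes relative to each array's 75th percentile, adherent cells on the x axis and non-adherent cells on the y axis. The solid line marks equal levels and the dashed lines a 4-fold difference. Contractile genes (22, circles) and focal adhesion genes (31, triangles) extend far below the lower dashed line, while lysosomal genes (42, squares) and macrophage markers (20, diamonds) lie on or above the solid line with 2 exceptions.

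The labelled cell type was checked against marker genes. All 21 fibroblast markers were well above background on both arrays, among them Col1a1, Pdgfra and Dcn. The sort for CD45-negative cells left Ptprc, the gene for CD45, detectable in both states, at 355 units on the adherent array and 2441 units on the non-adherent array. Of 25 macrophage and myeloid markers, 20 were measured on both arrays, and 19 of these were over 2-fold and 17 over 4-fold higher in suspension, against 15.5% and 6.38% of all genes. Their summed level was 270 times the 75th percentile on the adherent array and 1749 times it on the non-adherent array. Folr2, Mrc1 and C1qb, genes of tissue-resident macrophages, rose by 3.63, 3.58 and 3.44, whereas the 3 probes of Itgam, which encodes the integrin chain CD11b, lay between -0.84 and 1.96, with the brightest at the low end. Ccr2 and Lyve1 were above background in suspension only, Timd4 and Cd163 on neither array, and Cd68 had no named probe.

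Of 16 endothelial markers 13 were measured, 9 of them over 2-fold and 6 over 4-fold higher, with a summed level of 25.9 in adherent and 45.6 in suspended cells. The tight junction gene Cldn5, the receptor gene Tie1 and the cadherin gene Cdh5 led them, with rises of 3.77, 3.18 and 2.94. The receptor gene Tek had a difference of -0.12, and the 2 probes of the receptor gene Kdr gave -0.35 and 1.96. Of 10 fat cell markers 4 were measured (Cfd, Fabp4, Lpl and Pparg), all over 4-fold higher. Their summed level was 15.8 and 92.1, most of it from Lpl at 6723.5 and 41757 units and Fabp4 at 2704 and 17732 units. Adipoq, Plin1, Cidec and Retn were above background in suspension only, Retn by at least 1.22-fold, and Lep and Ucp1 on neither array. Cardiomyocyte markers had a summed level of 1.5 and 2.18, most of it from Tnnt2 at 593 and 955 units, and Nppa read 97.6 and 207 units. Tnni3, Myl7 and Mb were above background in suspension only and Ttn, Actn2, Ryr2, Ckm and Pln on neither array. Mesothelial markers summed to 26 and 9.60, most of it from Aldh1a2 at 10618 and 4194 units. Of the 10 measured genes 9 had negative differences, and Msln was higher (0.84). Of 19 T and B lymphocyte markers 6 were measured on both arrays, among them Cd4 at 2855 and 3439.5 units, Cd3e at 948 and 908 units and Il7r, which rose from 622 to 3056 units. Cd79b, Cd2 and Klrb1c were above background in suspension only, and Cd3d, Cd3g, Cd8a and Ms4a1 on neither array. Markers of smooth muscle and pericytes, which hold Acta2, Cnn1 and Tagln, summed to 1340 and 75.4. Of their 8 measured genes 3 were higher, Rgs5 (0.79), Notch3 (0.62) and Mcam (0.69, other probe -0.33). Kcnj8, Abcc9 and Vtn were above background in suspension only and Myh11, Rgs4 and Myocd on the adherent array only. Among 7 measured granulocyte and mast cell markers 4 were higher, such as Camp (3.28) and Kit (2.16), and 3 lower, such as Mpo (-1.51). Their summed levels were 105 and 97.1, most of it from Csf3r at 62759 and 58569 units. For glia and neurons they were 70.2 and 17.0, set by Tubb3 (-3.45) and Snap25 (-1.47), while 5 of the 8 measured genes were higher, such as Ngfr (1.92) and S100b (1.37). For erythroid cells and platelets they were 54.4 and 165, set by Pf4 (1.61), while the other 4 measured genes had negative differences, from -1.30 (Ppbp) to -0.06 (Hba-a1). The macrophage, endothelial and fat cell lists were higher beside the rises described below, and their part in those was not tested. Where a value without genes of the macrophage or endothelial list is given, it only leaves out shared members and does not test that part.

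The 15 largest falls began with Ankrd1, a muscle ankyrin repeat protein induced by stretch. Ankrd1 read 65115 units on the adherent array and 34.4 units on the non-adherent array, a difference of -10.98 or 2025-fold. Several others encode contractile proteins. Actg2 (gamma smooth-muscle actin) read 17282 and 30.6 units, Cnn1 (calponin) 38092 and 91.7, Acta1 (skeletal alpha-actin) 23014 and 154, and Myl9 (myosin regulatory light chain) 213650 and 2053. Acta2, which encodes alpha-smooth muscle actin and defines the myofibroblast, fell by 6.63 from 435300 to 4690.3 units, so that it remained well above background in suspension. Actin genes resemble each other in sequence, and whether a probe also bound transcripts of the others was not tested.

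Other genes among the 15 came from outside the contractile machinery. Edn1, which encodes the vasoconstrictor endothelin-1, and Ddah1, whose enzyme removes an inhibitor of nitric oxide synthesis, fell, with differences of -6.42 and -7.04, and the other probe of Ddah1 gave -6.43. Slc1a6 (a glutamate transporter), Vgf (a precursor of secreted peptides), Scel (sciellin), Mogat2 (a lipid acyltransferase), Asb5 and Col11a1 (a fibrillar collagen chain) fell, with differences of -7.89, -7.29, -6.93, -6.56, -6.48 and -6.23. Vgf, Edn1 and Col11a1 ended between 19.4 and 22.6 units on the non-adherent array, close to its lowest signal well above background of 14.0 units.

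Igfbp5, a secreted binding protein of insulin-like growth factors, led the 15 largest rises, from 142 to 17069.5 units, a difference of 6.82 or 113-fold. Cd5l, a secreted protein of macrophages, followed with 197 and 19374 units. Fcrls and Fcna, which are also expressed by macrophages, and Rgs1, a regulator of G-protein signalling in leukocytes, rose by 5.33, 5.15 and 4.86. Matrix genes were on the list too. The protease gene Adamts15 rose by 5.89, and Abi3bp and Fbln7 (fibulin 7) by 5.35 and 5.25. The transcription factor gene Fosb read 119 and 5479 units. Cfd (complement factor D), Itih4 (an acute-phase inhibitor), Agt (angiotensinogen), Fndc5, Pcdh12 (an endothelial protocadherin) and Gm1987 completed it, with rises between 4.91 and 5.54. Cfd and Pcdh12 began at 17.3 and 19.7 units on the adherent array, close to its lowest signal well above background of 16.7 units. Adamts15, Gm1987, Abi3bp and Fndc5 began between 28.3 and 31.9 units there. The macrophage list moved with these genes as given above.

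**Figure D2:**
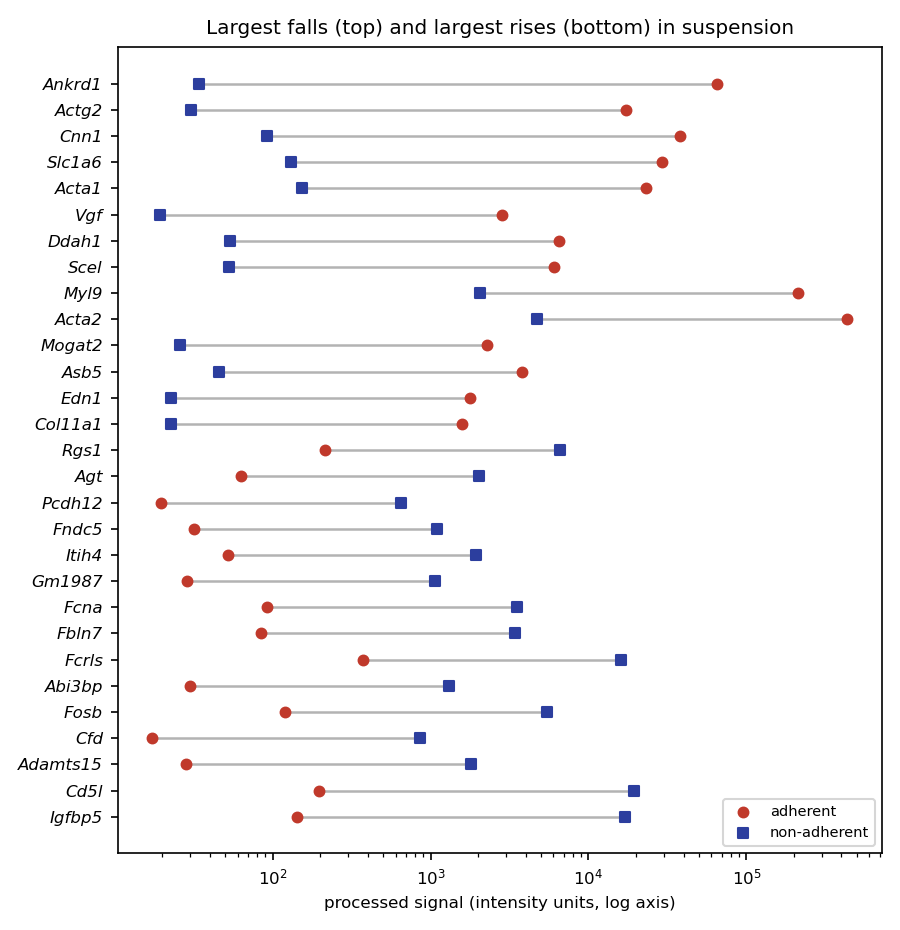
Processed signal in intensity units on a log axis for 14 of the 15 genes with the largest falls (top, Ankrd1 first) and the 15 with the largest rises (bottom, Igfbp5 last), with circles for the adherent and squares for the non-adherent array. Ankrd1 spans 65115 to 34.4 units and Igfbp5 142 to 17069.5 units.

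Most genes of the smooth-muscle contractile apparatus fell. Of 25 listed genes 22 were measured on both arrays, with a median of -2.84, and 17 were over 2-fold and 14 over 4-fold lower, against 13.1% and 3.91% of all genes. Their summed level was 2290 times the 75th percentile in adherent and 135 times it in suspended cells. Lmod1 and Myh11, the smooth-muscle myosin heavy chain, were above background on the adherent array only, by at least 10.6-fold and 16.3-fold, and Pln on neither. The exceptions were Actc1, the cardiac actin gene, with a difference of 0.75, and Pdlim3, which encodes a PDZ-LIM protein of the Z-disc, with 1.03. The list was widened to the actin cytoskeleton that every cell uses. There the median of 40 genes was -1.02, with 21 lower and 2 higher by over 2-fold. Fscn1 (the filament bundler fascin) and Cnn2 (calponin 2) fell, with differences of -4.09 and -3.58. The cytoplasmic actins Actb and Actg1, chosen here after their values were seen, had differences of -0.41 and -0.30. Gsn (gelsolin, which severs filaments) and Ezr (ezrin, which links filaments to the membrane) were the 2 higher genes, at 1.49 and 1.23.

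The upstream sequences of 4 of these genes are shown because they hold letters that SRF and TEAD proteins are known to bind. They are the 250 bases before the annotated start, read 5′ to 3′ on the gene's strand from the RefSeq promoter table of GRCm38.p6, and were chosen after the values were seen. Capitals mark the CArG box and the TEAD motif GGAATG or its reverse complement. The CArG box was searched here and below only as CCWWWWWWGG, where W is A or T, so boxes with a mismatch are neither marked nor counted.
Acta1, chr8:123894776-123895025, minus strand: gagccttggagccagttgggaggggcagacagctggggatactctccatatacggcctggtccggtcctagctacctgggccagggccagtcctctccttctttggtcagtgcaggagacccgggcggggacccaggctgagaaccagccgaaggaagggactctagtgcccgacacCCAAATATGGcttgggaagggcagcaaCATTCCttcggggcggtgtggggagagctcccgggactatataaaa
Myl9, chr2:156775214-156775463, plus strand: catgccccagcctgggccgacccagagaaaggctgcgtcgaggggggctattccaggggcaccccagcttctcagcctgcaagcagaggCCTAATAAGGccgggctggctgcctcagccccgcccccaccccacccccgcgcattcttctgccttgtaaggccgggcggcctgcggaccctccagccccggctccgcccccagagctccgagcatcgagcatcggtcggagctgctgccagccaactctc
Vcl, chr14:20929148-20929397, plus strand: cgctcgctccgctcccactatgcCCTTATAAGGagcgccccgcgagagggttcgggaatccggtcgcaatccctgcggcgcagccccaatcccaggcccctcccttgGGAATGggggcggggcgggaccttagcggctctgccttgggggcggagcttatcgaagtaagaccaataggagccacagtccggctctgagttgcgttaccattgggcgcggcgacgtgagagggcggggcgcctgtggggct
Ankrd1, chr19:36119845-36120094, minus strand: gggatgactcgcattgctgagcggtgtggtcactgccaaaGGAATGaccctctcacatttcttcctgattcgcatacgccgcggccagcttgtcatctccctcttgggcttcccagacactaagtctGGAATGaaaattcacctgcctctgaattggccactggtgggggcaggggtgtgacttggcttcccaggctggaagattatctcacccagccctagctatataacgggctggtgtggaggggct
The CArG box of Acta1 lies 73 to 64 bases before the start and that of Myl9 161 to 152 bases before it. Vcl, which encodes the adhesion protein vinculin, holds a CArG box 227 to 218 bases and a TEAD motif 143 to 138 bases before its start. Ankrd1 holds 2 TEAD motifs, the first bases of which lie 210 and 123 bases before the start, and no CArG box of this form in this window.

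Both motifs were then counted in all genes with a single promoter entry. A CArG box was found in 13 of 317 promoters of genes over 4-fold lower (4.10%, exact 95% binomial interval 2.20 to 6.91%), in 8 of 527 promoters of genes over 4-fold higher (1.52%, 0.658 to 2.97%) and in 119 of all 8944 measured promoters (1.33%). Besides Acta1, Myl9, Vcl and Cnn2 the 13 included Fermt2, which encodes the integrin activator kindlin-2, and Rnd3, which encodes a small GTPase. The TEAD motif was found in 53 of the 317 promoters (16.7%, 12.8 to 21.3%), in 61 of the 527 (11.6%, 8.97 to 14.6%) and in 975 of the 8944 (10.9%). Acta2, Edn1, Amotl2, Crim1 and Ccn1 were among the 53. Of all 22862 windows in the reference, 1.38% held a CArG box and 12.6% a TEAD motif. The intervals cover counting error only, and genes are not independent replicates.

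The other motifs were counted in the same windows on both strands. The TATA box letters TATAAA were found in 12.6% of the promoters of lower genes (9.17 to 16.8%), 8.73% of those of higher genes (6.46 to 11.5%) and 7.89% of all. The interferon-stimulated response element was found in 2.21%, 4.93% and 2.76%, and the AP-1 site TGACTCA in 3.47%, 5.12% and 3.01%. For the antioxidant element TGACNNNGC, which shares its first letters with AP-1, the shares were 12.9%, 14.4% and 11.7%, and for CCAAT 31.9%, 34.7% and 36.8%. The E2F site, TTTCGCGC or TTTGGCGC, was found in 2 promoters of lower genes (0.631%), in 2 of higher genes (0.380%) and in 1.26% of all. Over all 22862 windows the shares were 13.6% for TATAAA, 3.11% for the interferon-stimulated element, 4.47% for AP-1, 10.0% for the antioxidant element, 34.7% for CCAAT and 0.665% for E2F. A match describes letters in a window and does not show that a factor bound there.

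**Figure D3:**
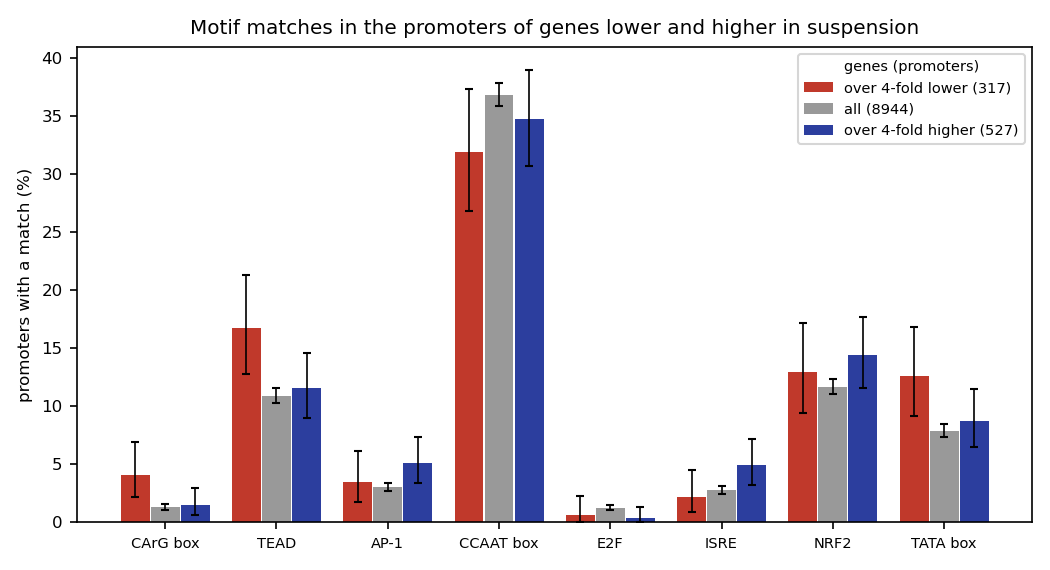
Share of promoters (%) with at least 1 match to each of 8 motifs in the 250 bases before the start, for genes over 4-fold lower (317 promoters), all measured genes (8944) and genes over 4-fold higher (527). Error bars are exact 95% binomial intervals. For the CArG box the interval of the lower genes, 2.20 to 6.91%, lies above the 1.33% of all genes. The same holds for the TEAD motif and the TATA box. The interval of the higher genes lies above the share of all genes for AP-1 (3.40 to 7.37%) and the interferon-stimulated element (3.25 to 7.15%).

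The list of focal adhesion genes, which also holds the caveolar gene Cavin2, showed the same direction as the contractile genes. Of 31 measured genes 19 were over 2-fold and 14 over 4-fold lower and none was over 2-fold higher, with a median of -1.86. Cavin2, which encodes a coat protein of caveolae, read 78109 units on the adherent array and 1765 units on the non-adherent array. Lims2 (PINCH2) and Parva (alpha-parvin), partners of the integrin-linked kinase, fell, with differences of -5.16 and -4.34, and Vcl had a difference of -3.23. The largest upward value was that of Pxn (paxillin), 0.92, and Tgfb1i1 had no named probe. Integrins themselves differed by chain. Of 14 measured chains, 5 (35.7%) were lower and 3 (21.4%) higher by over 2-fold, against 13.1% and 15.5% of all genes. The collagen receptor chain Itga11 fell by 2.29. Itga1, also a collagen receptor chain, had a difference of -2.25, but its other probe gave -0.94, so that it did not pass 4-fold with the mean over probes, -1.60. Itga5, the fibronectin receptor chain, had a difference of -1.55. In the opposite direction Itga4 and Itga6 rose by 2.43 and 2.32. The 2 probes of Itgb3 gave 1.24 and -0.05, and with the mean over probes 2 chains were over 2-fold higher. Itga2 was above background on the adherent array only.

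Targets and components of the YAP and TEAD pathway had a median of -1.82 over 28 measured genes, with 22 over 2-fold and 13 over 4-fold lower. After Ankrd1 the largest falls were those of Amotl2, a YAP-binding angiomotin, from 9694 to 324 units, and of Crim1, from 5492 to 256 units. Tead4, a DNA-binding partner of YAP, was above background on the adherent array only, by at least 7.26-fold. Vgll3, a TEAD cofactor that the study followed, read 666 units on the adherent array and 15.2 units on the non-adherent array, where it was not well above background, so that the adherent level was at least 46.8-fold higher. Only Nt5e, the gene of the surface enzyme CD73, and Vgll4, a TEAD cofactor that competes with YAP, were over 2-fold higher, at 1.46 and 1.41.

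Among SRF, its cofactors and the early genes that serum induces, more genes were higher than lower, with a median of 0.54. Of 25 measured genes 3 (12%) were lower and 11 (44%) higher by over 2-fold, against 13.1% and 15.5% of all genes. Srf itself had a difference of -1.66, and Fosl1, which encodes the AP-1 subunit FRA-1, fell from 1927 to 97.8 units. The AP-1 and stress genes Fosb, Fos and Atf3 rose by 5.42, 3.86 and 3.06, with Fos at 1205 units on the adherent array and 18678 units on the non-adherent array. Fosl1 and Fosb encode subunits of the same factor and moved in opposite directions. Myocd, the smooth-muscle cofactor of SRF, was above background on the adherent array only.

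**Figure D4:**
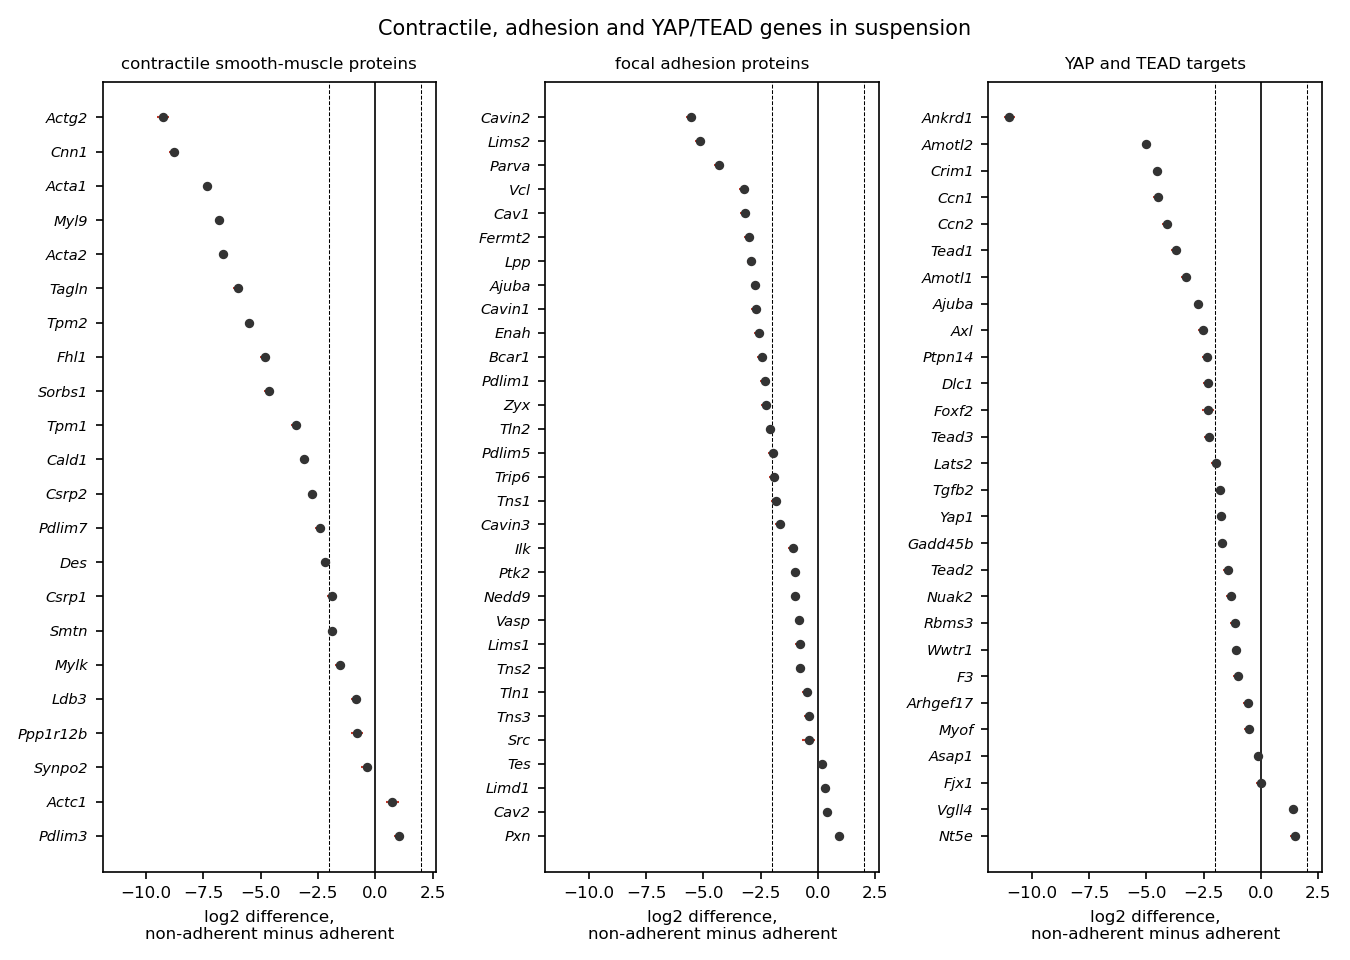
Log2 difference of each measured contractile gene (22), focal adhesion gene (31) and YAP and TEAD gene (28), non-adherent minus adherent, with the software's technical error as a bar. Dashed lines mark a 4-fold difference. Values run from -10.98 (Ankrd1) to 1.46 (Nt5e), and no gene in the 3 lists lies above the upper dashed line.

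Among the matrix genes, the enzymes that cross-link and fold collagen were lower while the collagens went both ways. Of 23 collagen processing genes 11 were over 2-fold and 7 over 4-fold lower and none over 2-fold higher, with a median of -0.76. Lox, the lysyl oxidase that cross-links collagen, read 10237 units on the adherent array and 482 units on the non-adherent array. Its relatives Loxl4 and Loxl3 fell, with differences of -3.84 and -3.02. The 10 measured fibrillar collagens split into 4 lower and 4 higher by over 2-fold, 40% each way against 13.1% and 15.5% of all genes. Their median of -0.18 turned to 0.22 after quantile normalization. Col1a1 and Col1a2, the chains of type I collagen, had differences of -0.70 and -1.01, and after quantile normalization of -0.18 and -0.51. Besides Col11a1, Col5a2 and Col5a1 were lower, at -1.58 and -1.35, and Col27a1 rose from 57.2 to 552 units. Of 17 other collagens Col8a1 fell by 4.24 and Col7a1, the anchoring fibril collagen, had a difference of -2.24, whereas Col18a1, Col6a2 and Col15a1 were higher by differences of 2.55, 1.96 and 1.85.

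Matricellular and elastic fibre genes also went both ways. Of 22 matricellular genes 5 (22.7%) fell and 6 (27.3%) rose, against 3.91% and 6.38% of all genes. Thbs1 (thrombospondin 1) fell from 69529 to 4440.5 units, and Ccn4 and Tnc (tenascin C) had differences of -3.77 and -3.5. Dpt (dermatopontin) rose from 99.6 to 3005 units, and Sparcl1 and Tnxb (tenascin X) by 3.96 and 3.38. Postn, the gene of periostin, read 7849 and 7715 units, a difference of -0.12 against a technical error of 0.20. Among 26 small proteoglycan and elastic fibre genes, Ogn (osteoglycin) and Ltbp1 (which holds latent TGF-beta in the matrix) fell, with differences of -2.56 and -2.45, and Fbln7, Fbln1 and Lum (lumican) rose by 5.25, 3.73 and 3.56.

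Proteases of the matrix and their inhibitors split in a similar way. Of 31 measured genes 8 (25.8%) fell and 6 (19.4%) rose, against 3.91% and 6.38% of all genes. Among the falls were those of the aggrecanase gene Adamts5 (-4.32) and of Timp3, a metalloproteinase inhibitor held in the matrix (-3.14). Mmp11 and Mmp2, which encode metalloproteinases, rose by 2.70 and 2.49, with Mmp2 at 5699.5 units on the adherent array and 34191 units on the non-adherent array. Mmp10 and Mmp16 were above background on the adherent and Mmp15 and Timp4 on the non-adherent array only.

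Genes of TGF-beta and BMP signalling, which drive and modulate fibroblast activation, had a median of -0.64 over 37 measured genes. By over 2-fold 16 (43.2%) were lower and 5 (13.5%) higher, against 13.1% and 15.5% of all genes. Ligands went in both directions. Inhba, the subunit of activin A, fell from 42962 to 1451 units, and Bmp4 and Bmp6 fell, with differences of -4.66 and -4.14. Bmp2 and Tgfb1 rose by 2.57 and 2.05, and Tgfbr2, the type II receptor, had a difference of 1.79. Of 28 measured Wnt genes 11 (39.3%) were lower and 3 (10.7%) higher by over 2-fold, against the same shares of all genes. The secreted modulators Dkk2 and Dkk3 moved apart, from 472 to 32.5 and from 697 to 11604 units, and Fzd2, a Wnt receptor gene, fell by 2.94. Wnt5a had a difference of -1.85 and Wnt4 of 1.27.

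Growth factor genes also divided by member. Of 37 measured genes 9 (24.3%) fell and 4 (10.8%) rose, against 3.91% and 6.38% of all genes. Those that fell most were Ereg and Nrg1, ligands of the epidermal growth factor receptor family, and Pdgfd, with 8024, 526 and 306 units in adherent and 210.1, 27.3 and 21.8 units in suspended cells. Those that rose all belonged to the insulin-like growth factor axis. Igfbp5, Igfbp3 and Igf1 rose by 6.82, 3.76 and 2.93, and the fourth was Igfbp4 (2.46), while the binding protein gene Igfbp2 fell by 3.78. Igf1 read 3969 units on the adherent array and 32337 units on the non-adherent array.

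In the list of Notch, Eph and semaphorin genes 6 of 32 (18.8%) fell and 4 (12.5%) rose, against 3.91% and 6.38% of all genes. The sign of the list's median changed between settings. Epha2, Slit2 and Efnb2, which guide contact between cells, fell, with differences of -3.38, -3.27 and -2.50. Heyl and Plxnd1 rose by 3.64 and 2.57, as did Efna1 by 2.46. Vasoactive genes held 4 falls (15.4%) and 8 rises (30.8%) among 26, and the sign of their median also changed between settings. Next to Edn1 and Ddah1, the natriuretic peptide clearance receptor gene Npr3 fell by 2.94. Agt and the endothelin receptor genes Ednrb and Ednra rose by 4.91, 4.70 and 3.05, so that the ligand gene Edn1 and its receptor genes moved in opposite directions. Of 15 measured retinoid genes 5 (33.3%) were lower and 1 (6.67%) higher by over 2-fold, against 13.1% and 15.5% of all genes. Their median was -0.13. Aldh1a1, an enzyme of retinoic acid synthesis, fell by 3.65 and Cyp26b1, which degrades it, had a difference of -2.10. The higher gene was Dhrs3, with 26584 units on the adherent and 93331 units on the non-adherent array, a difference of 1.71.

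Transcription factors of fibroblasts and the epicardium were mostly lower, with a median of -0.83 over 37 measured genes, 17 lower and 2 higher by over 2-fold. Osr1 fell from 2185 to 82.8 units and Tbx18 from 2565 to 206, and Foxc2 fell by 2.66. Tcf21, which specifies cardiac fibroblasts, read 2788 and 890.1 units, a difference of -1.74. Mef2c and Mef2a were the 2 higher genes, at 1.88 and 1.32. Fibroblast markers diverged. Thy1 fell from 40445 to 3823 units, and Dpt, Lum and Tnxb rose as given above. Islr, a gene of mesenchymal stromal cells, rose by 2.36, and Pou5f1, a gene of pluripotent cells, was well above background on neither array.

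Cell-cell junction genes had 13 of 26 (50%) lower and 6 (23.1%) higher by over 2-fold, against 13.1% and 15.5% of all genes. Pkp2 (plakophilin 2), Pcdh18 and Cdh2 (N-cadherin) fell, with differences of -3.56, -3.28 and -3.23, with Cdh2 at 22759 units on the adherent array and 2595 units on the non-adherent array. The rises were those of the endothelial genes Cldn5 and Cdh5 and of Pcdh17 (2.61), and without genes of the endothelial list 4 of 24 were over 2-fold higher. Intermediate filament and nuclear envelope genes had a median of -0.84, with 10 of 22 over 2-fold lower, led by Nes (nestin, -2.59), Krt19 (-2.27) and Des (desmin, -2.17). Syne3, which encodes nesprin-3 of the nuclear envelope, was higher by a difference of 1.11.

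**Figure D5:**
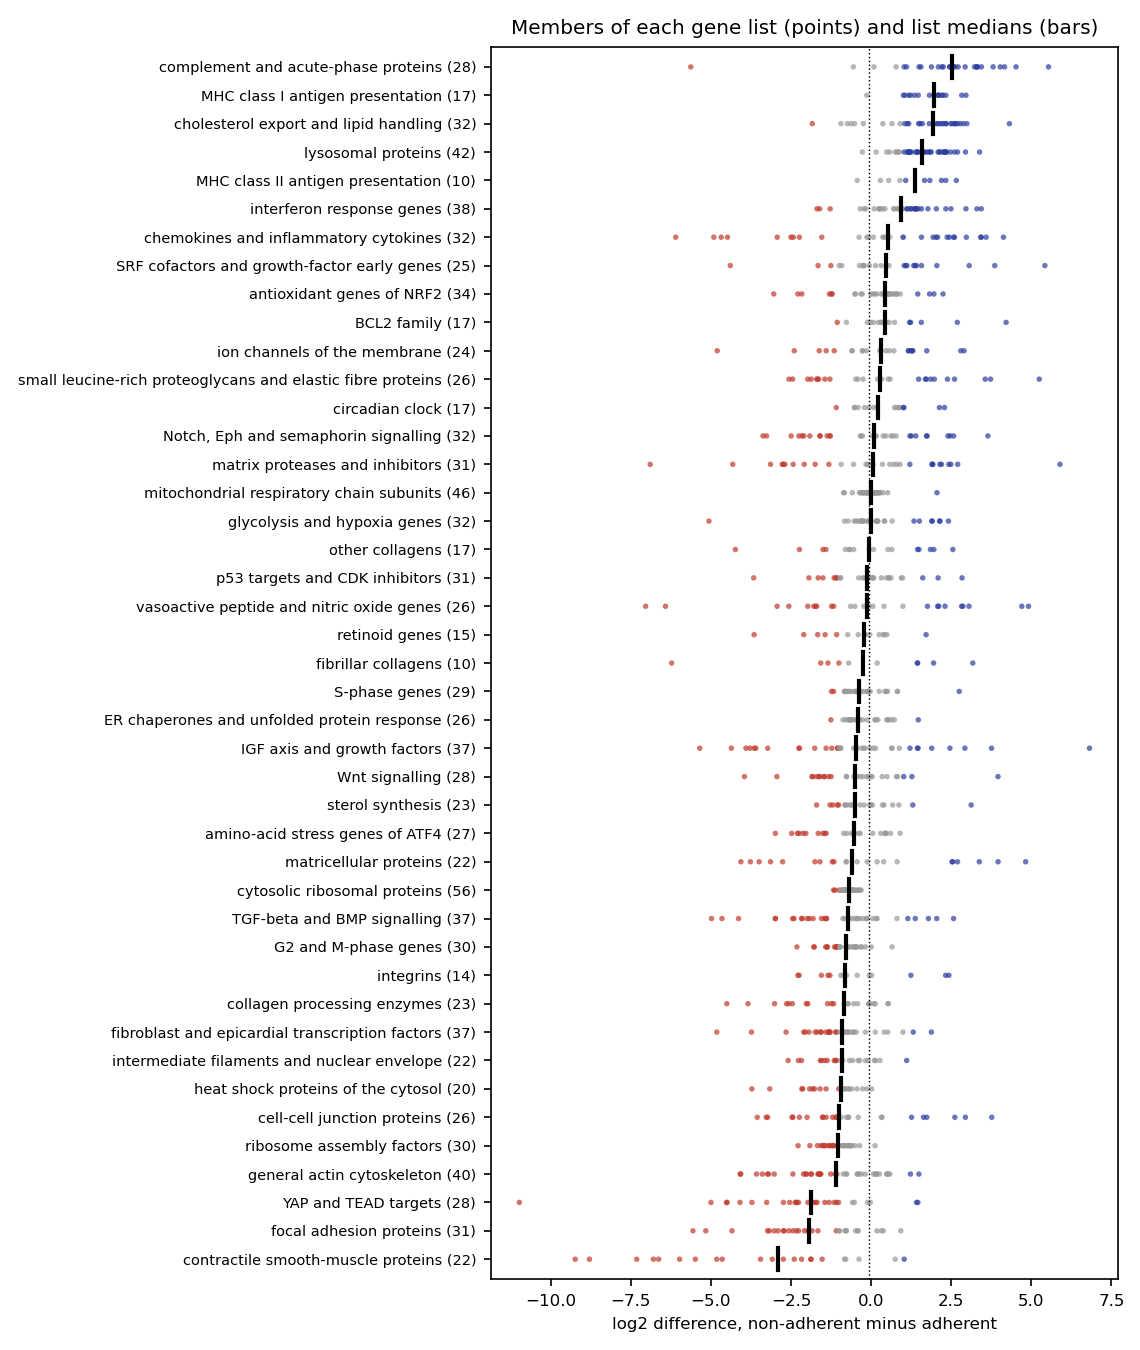
Log2 difference of every measured member of 43 gene lists (points, red under -1 and blue over 1), with the median of each list as a black bar, the number of measured members in brackets and the median of all genes, -0.08, as a dotted line. Complement genes lie at the top, with a median of 2.51, and contractile genes at the bottom, with -2.91.

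Cell cycle genes were described by phase. Of 30 genes of the G2 and M phases 11 were over 2-fold and 1 over 4-fold lower, against 13.1% and 3.91% of all genes, with a median of -0.71. Anln (anillin, an actin-binding protein of the cleavage furrow) fell from 17444 to 3741 units, and Cdc20 and Kif20a had differences of -1.79 and -1.78. Among 29 S-phase genes 2 were over 2-fold lower, Rrm2 (-1.24) and Rrm1 (-1.17), the subunits of ribonucleotide reductase, and E2f2 alone rose, by 2.75. Of 31 p53 targets and cyclin-dependent kinase inhibitors 7 (22.6%) were lower and 3 (9.68%) higher by over 2-fold, against 13.1% and 15.5% of all genes. Gadd45g fell by 3.67, whereas Sesn1 and Gadd45a rose by 2.84 and 2.09.

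The BCL2 family decides over death by the mitochondrial route, and detachment of cells from their matrix is a known trigger of it. Bmf, a death-promoting member linked to the cytoskeleton, rose from 121 to 2409 units, and Bcl2a1d, a survival member expressed in leukocytes, from 13119 to 90480.1 units. Bcl2l11, the gene of BIM, had a difference of 1.57. Of 17 measured members 5 (29.4%) were over 2-fold higher, against 15.5% of all genes, and Bok alone was over 2-fold lower (-1.06). The Bcl2a1 genes are near-identical copies, and Bcl2a1a and Bcl2a1b had no named probe.

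All 56 cytosolic ribosomal protein genes had negative differences, from -1.17 (Rps2) to -0.31 (Rpl10), and 3 were over 2-fold lower, with a median of -0.61. After quantile normalization 51 of the 56 were negative, none was over 2-fold lower and the median was -0.24. Scaling to the spike-in probes put 16 of them over 2-fold lower. Ribosome assembly factors had a median of -0.96, with 16 of 30 over 2-fold lower and none over 2-fold higher. Dkc1 (dyskerin) fell from 1090.1 to 239.6 units, and Nop58 and Nop56, nucleolar proteins that modify ribosomal RNA, had differences of -1.91 and -1.68. Of 20 heat shock genes, mostly of the cytosol, with mitochondrial Hspd1 and Hspe1, 10 were over 2-fold lower and none over 2-fold higher. The 3 that fell most, Cryab (-3.72), Hspb7 (-3.17) and Hspb2 (-2.16), encode small heat shock proteins that are abundant in muscle.

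Amino-acid supply genes under the factor ATF4 had 10 of 27 members over 2-fold lower and none over 2-fold higher. Phgdh, the first enzyme of serine synthesis, fell from 16214 to 2182 units, and Asns (asparagine synthetase) had a difference of -2.30. The 2 probes of Slc7a5, an amino-acid transporter gene, gave -2.48 and -1.06. Chaperones of the endoplasmic reticulum differed little, with Manf over 2-fold lower (-1.26) and Ero1b over 2-fold higher (1.47) among 26. Of 34 antioxidant genes of NRF2 23 had positive differences, with a median of 0.50. By over 2-fold 6 (17.6%) were lower and 4 (11.8%) higher, against 13.1% and 15.5% of all genes. Nqo1, Gsta4 and Me1 fell, with differences of -3.04, -2.29 and -2.17, of which that of Gsta4 was -1.61 with the normexp background correction. Hmox1, which degrades haem, rose from 31331 to 158599 units.

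Lysosomal genes were higher as a group. Of 42 measured genes 34 were over 2-fold and 14 over 4-fold higher, none was over 2-fold lower, and the median was 1.66. Atp6v0d2, a subunit of the proton pump, rose from 739 to 8259 units, and Laptm5 and Psap (prosaposin) rose by 2.95 and 2.70. Gla, which encodes alpha-galactosidase, had the lowest value, -0.28. Without Laptm5, which is also in the macrophage list, 33 of 41 were over 2-fold higher and the median was 1.65. That list had a summed level of 270 and 1749 in the same samples, and its part in the higher levels of the other 41 genes was not tested.

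Cholesterol export and lipid handling followed, with 23 of 32 measured genes over 2-fold and 16 over 4-fold higher and a median of 2.00. Plin4, a coat protein of lipid droplets, rose from 40.05 to 853 units, the cholesterol exporter gene Abcg1 by 2.99 and Cd36, a fatty acid transporter of macrophages, fat cells and endothelium, by 2.87. Adipoq and Plin1, genes of fat cells, were above background in suspension only. Scd2, a fatty acid desaturase, was the exception over 2-fold lower, at -1.84. The 23 measured genes of sterol synthesis had a median of -0.44. By over 2-fold 5 (21.7%) were lower and 2 (8.70%) higher, against 13.1% and 15.5% of all genes. The 2 probes of Srebf2, which encodes the factor that activates the pathway, disagreed, at 3.12 and -0.44. The macrophage and fat cell markers were higher beside the lipid genes (summed levels 270 and 1749, and 15.8 and 92.1), and their part was not tested.

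Energy metabolism was read from the respiratory chain and from glycolysis. Of 46 subunits of the mitochondrial respiratory chain none was over 2-fold lower and 1 was over 2-fold higher, Cox7a1, an isoform of heart and muscle, at 2.06, against 13.1% and 15.5% of all genes. Among 32 glycolysis and hypoxia genes 7 (21.9%, against 15.5% of all genes) were over 2-fold higher, led by Car9 (2.41), Car12 (2.15) and Ankrd37 (2.13). Adm, which encodes the vasodilator peptide adrenomedullin, fell from 24648 to 788 units.

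Complement and acute-phase genes had the highest median of the pathway lists, 2.59, with 24 of 28 measured genes over 2-fold and 19 over 4-fold higher. Beside Cfd, the acute-phase genes Serpina3n and Saa3 rose from 432 to 10617 and from 1108 to 21259 units. Ptx3, a secreted pattern receptor, was the 1 member that fell, from 28569 to 616 units. The 3 C1q genes are macrophage markers, and without them 21 of 25 were over 2-fold higher with a median of 2.53. The part of macrophages in the higher levels of these 25 genes was not tested.

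Antigen presentation by MHC class I was also higher, with 16 of 17 measured genes over 2-fold and 8 over 4-fold higher and a median of 2.04. Psmb9 and Psmb8, subunits of the immunoproteasome, rose by 2.96 and 2.33, and the 2 probes of Nlrc5, the activator of class I genes, gave 2.83 and 0.86. The H2 genes resemble each other, and their probes may not separate them. For class II 6 of 10 measured genes were over 2-fold higher, among them H2-DMb1 (2.66), H2-DMa (2.33) and Ifi30 (2.20). Ciita, their activator, read 23.9 and 18.9 units, a difference of -0.43 against a technical error of 0.42. Interferon response genes had 17 of 38 over 2-fold higher and 3 over 2-fold lower. Cxcl10 and Rsad2 rose by 3.44 and 3.30, whereas Isg20, Ifit2 and Irgm1 had differences of -1.69, -1.61 and -1.28. Macrophages express these presentation and interferon genes as well, with the list at 270 and 1749, and their part was not tested.

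Chemokine and cytokine genes had 8 falls (25%) and 11 rises (34.4%) among 32, against 3.91% and 6.38% of all genes. Il6 fell from 9717 to 345 units and Ccl17 from 1444 to 22.5, and Tnfrsf11b (osteoprotegerin) fell by 4.68. Ccl3 rose from 720.3 to 13490.5 units and Tnf from 121 to 1544, and Cxcl10 by 3.44. Il1a, Il1b, Il10, Cxcl2, Ccl11 and Ccl24 were above background in suspension only and Lif on the adherent array only. Ccl3 and Tnf are products of activated macrophages among other cells, and the share of the macrophage list in these rises was not tested.

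Gene families were read from shared symbol roots. Of 334 roots with at least 6 measured genes, 10 had over 40% of their members past 4-fold in 1 direction. Of all genes 3.91% were past 4-fold lower and 6.38% past 4-fold higher. Small heat shock proteins (Hspb, 3 of 7) were the only one of the 10 with falls and no rise, and PDZ-LIM proteins (Pdlim) had 3 falls and 1 rise among 6. The rest leaned upwards, with rises of 6 of 13 Ccl chemokines, 7 of 16 C-type lectins (Clec), 4 of 9 Toll-like receptors (Tlr), 3 of 6 coronins (Coro), 3 of 7 oligoadenylate synthetases (Oas), 3 of 7 Tnfaip genes, 3 of 6 genes of the root Csf and 3 of 6 Igfbp genes. In the Csf root the ligand gene Csf1 fell from 99414 to 4755 units and its receptor gene Csf1r, a macrophage marker, rose from 27054 to 176899 units. Ccl17, Csf1 and Igfbp2 were the falls in their families. The macrophage list had a summed level of 270 and 1749 in the same samples, and its part in the families that leaned upwards was not tested.

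Another 481 genes were well above background on the adherent and 747 on the non-adherent array only, of which 120 and 115 had a bound over 4-fold. A bound is the bright signal over the dim signal or over the dim array's lowest value well above background, whichever was higher, both scaled. The adherent level was at least 207-fold higher for Col2a1, the cartilage collagen gene, at 2719.6 units, at least 153-fold for Rassf6 and at least 100.1-fold for 1700009N14Rik. Cemip (which degrades hyaluronan), Npnt (the integrin ligand nephronectin), Kcnmb1 (a potassium channel subunit of smooth muscle) and Cobl (an actin nucleator) followed, with at least 51.3-fold, 44.3-fold, 43.1-fold and 38.9-fold.

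In the other direction the level in suspension was at least 68.0-fold higher for Plin1, at 1219 units. Wfdc21, Cilp (a cartilage and heart matrix protein), Acod1 and Gpr34 (an enzyme and a receptor gene expressed by macrophages) were higher by at least 51.0-fold, 43.9-fold, 38.5-fold and 38.4-fold. Tmem178 and Adipoq were also among the 8, with at least 26.4-fold and 26.2-fold. Genes of fat cells and macrophages made up 4 of these 8.

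Genes outside the protein-coding class were few. Of 286 long noncoding RNA genes measured on both arrays 14 fell and 6 rose, and of 95 transcribed pseudogenes 2 fell and 4 rose, against 531 and 883 of 13605 protein-coding genes.

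Lists of ion channels, the circadian clock and reference genes were also read. Of 24 measured channel genes 2 fell and 2 rose, 8.33% each way against 3.91% and 6.38% of all genes. Kcnj15, a potassium channel gene, fell by 4.81 and Aqp1, a water channel gene, had a difference of -2.40. In the opposite direction Kcnn4 and Trpv4, which encode channels for potassium and calcium, rose by 2.90 and 2.80. Among 17 clock genes Bhlhe41 and Dbp rose by 2.29 and 2.13, and Nfil3 had a difference of -1.09. Of 16 reference genes none passed 4-fold, and the highest were the lysosomal enzyme gene Gusb, at 1.60, and Tfrc, at 1.43.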

How the data were processed

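Per the file headers, the deposited scanner files hold spot intensity from Agilent Feature Extraction 10.10.1.1, whose processed signal is given on a linear scale after the software's background correction, with an error and flags per spot. The deposited series matrix holds intensity values equal to the processed signal times 1.52 on both arrays.

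Control spots were left out, as were the 154 and 180 spots with either of the software's outlier flags. From the log2 signal the 75th percentile of its array was subtracted, and spots of 1 probe were averaged. The files name transcripts: 21465 of 37881 names matched RefSeq (GRCm38.p6) without the version, which named 27234 of 55678 probes. A gene was read by its brightest probe well above background on both arrays, or else on 1 array. With 1 array a side, which limits the precision, there is no test, and genes were called past 4-fold, with 2-fold and 16-fold beside it. Motifs were searched on both strands in genes with 1 promoter entry, with exact binomial intervals (scipy 1.17.1). The code was tested on simulated data. Limma 3.58.1 in R 4.3.3 gave the normexp correction (offset 50), which used median spot signals because the planned mean signal column is not in the files used. Python 3.11.15, numpy 2.4.6, pandas 2.3.3 and matplotlib 3.10.9 were used.

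The genes named are the 15 largest falls and rises, up to 3 falls and 3 rises past 2-fold in each list with members that give its range, the 8 highest bounds in each direction and genes the study names; the others, such as Vcl, Csf1r and Bcl2l11, were chosen after their values were seen. A few genes that the rule names are not reported here. The members and the 55 lists were chosen with earlier results of these data known. The alternatives are 4 other scalings, the authors' matrix, the normexp correction, 2 other choices of probe, 3 filters on dim probes, flagged spots kept and other folds.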

Additional observations from a re-analysis of the deposited data

Results flagged for a closer look

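Probes for the ERCC control transcripts entered no comparison. Of 96 such probes, 2 had every spot well above background on both arrays, with median signals of 101 and 95.9 units on the adherent and 95.8 and 70.4 units on the non-adherent array. The labels used here do not mention an added control mix.

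Of 11870 probes without a RefSeq symbol that were well above background on both arrays, 14 fell and 3 rose by over 16-fold in suspension. They lie outside the gene counts because no gene could be named for them.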

How the results depend on the processing

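No paired analysis was possible because only 1 array was made per group, for which reason no replicate could be left out. Of 262 genes followed through the alternatives 6 changed sign, Itgam to 0.92, Kdr to 0.81 and Cd4 to -0.18 with the mean over probes, and Actg1 to 0.02, Rpl10 to 0.11 and Gla to 0.25 after quantile normalization. Of the 173 over 4-fold, 24 ended under it in at least 1 alternative: Itga1, Nlrc5, Slc7a5 and Srebf2 with the mean over probes (-1.60, 1.84, -1.77 and 1.34, with Itga1 also at -1.82 with the normexp correction), Dbp, Ifi30 and Il7r with spike-in scaling (1.92, 1.99 and 1.99), Ankrd37, Car12, Cox7a1, Gadd45a, Kit and Tgfb1 with spike-in scaling and with the normexp correction (1.49 to 1.98 with the latter), and Bhlhe41, Bmp2, Car9, Cyp26b1, Des, Dkc1, Gsta4, H2-DMa, Krt19, Npr3 and Pcdh17 with the normexp correction only, furthest Pcdh17 at 1.14 and Des at -1.17. Beside the fibrillar collagens, the relative medians of other collagens, small proteoglycans, Notch and Eph genes, vasoactive genes, reference genes, glia and erythroid markers did. The counts of 548 genes over 4-fold lower and 893 higher became 316 and 580 over genes above the median signal, 1833 and 2176 at 2-fold, and 83 and 41 at 16-fold, fewer or more by construction. The median of contractile genes relative to all genes, -2.84, became -3.20 with genes above background on at least 1 array, -3.17 with low signals raised to the floor and -4.64 over genes above the median signal. That of YAP and TEAD genes, -1.82, became -2.06 and -2.05 under the first 2 of these. Complement genes went from 2.59 to 2.92 and MHC class II genes from 1.45 to 2.11 over genes above the median signal. Quantile normalization gave -0.77 in place of -1.02 for the actin cytoskeleton and 2.25 in place of 2.04 for MHC class I genes, and the normexp correction 0.81 in place of 1.02 for interferon response genes. The cause of the last 3 was not tested. The other 158 main values under an alternative moved by less than the limits set. Of the values of single genes and lists under an alternative 410 moved past these limits and 3213 did not. Leaving out members that are also macrophage or endothelial markers was chosen after seeing the data. At 16-fold the normexp correction gave 55 lower and 14 higher. Signal over background limits falls that end near the floor, such as those of Vgf, Edn1 and Col11a1, and rises that begin near it, such as those of Cfd and Pcdh12. Among the alternatives the smallest differences of these falls were -4.90, -4.43 and -4.35, and those of the rises 3.65 and 2.88.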
